A study of Mus musculus with 18 samples.

Results

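The microRNA genes of the Mir297, Mir466, Mir467 and Mir669 families, most of which lie inside the mouse gene Sfmbt2, were followed on 18 expression arrays of cells on the way to induced pluripotency. Members were chosen by name. Each probe set with 1 gene symbol was taken where that symbol starts with one of these family names. This gave 43 of the 23521 single-symbol probe sets, out of 41345 probe sets in all. The families were themselves picked out for their measured profile, namely a lower level on day 8 than on day 6 and their levels in embryonic stem cells, induced pluripotent stem cells and granulocyte-macrophage progenitors. Those values are therefore described without a test, and tests are given only for the difference between the culture arms, which did not choose the members.

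Most arrays came from reprogrammable mouse embryonic fibroblasts (Rep-MEFs), which express OKSM (Oct4, Klf4, Sox2 and Myc) when induced with dox, a drug that switches the factors on. Bulk cultures with OKSM alone, or with OKSM and AGi (ascorbic acid plus an inhibitor of the kinase GSK3), were followed for 12 days, and days 2, 4, 6, 8, 10 and 12 gave 1 array from each arm. The 6 single arrays were Rep-MEFs without dox (MEF), granulocyte-macrophage progenitors (GMP), wild-type embryonic stem cells (ESC), iPSCs from fibroblasts after 96 hours of OKSM and AGi, iPSCs from GMPs after 48 hours of the same, and Thy1+ refractory cells sorted on day 3 of OKSM. All samples carry the strain label Black6-129X1/SvJ. No condition was repeated, so single arrays are compared by size alone. The ages of the donor animals were not given in the sources used here.

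MicroRNAs are cut from long primary transcripts, first in the nucleus by Drosha and then in the cytoplasm by Dicer, and the mature strand guides an Argonaute protein to messenger RNAs that match its seed. Sfmbt2 encodes a Polycomb-group protein, is imprinted with expression from the paternal allele, and is active in the early embryo and the placenta. A large block of repeated microRNA hairpins lies within one of its introns, so that hairpins and host can share a primary transcript.

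The mature sequences of 2 members are shown for their repeat-like makeup. They come from RefSeq (build GRCm38.p6) and are printed 5' to 3' with the seed, bases 2 to 8, in capitals.
mmu-miR-466i-3p: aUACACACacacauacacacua
mmu-miR-467f: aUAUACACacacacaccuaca
Both are largely runs of alternating A and C, with different seeds. The gene of the first lies on chromosome 13 (plus strand) and that of the second on chromosome 11 (minus strand). They are also the only member symbols outside Sfmbt2: the other 22 of 24 symbols, with 41 of the 43 probe sets, lie inside the host gene on chromosome 2. RefSeq lists 72 microRNA genes inside Sfmbt2, and 71 of them carry one of the family names.

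The host has more than 1 annotated start. The window around one of them, chr2:10372186-10372485 on the plus strand of GRCm38.p6, is shown because the members and their host are compared throughout. It runs from 250 bases before to 50 bases after the start, with each CG, the pair of bases that DNA methylation acts on and that reads the same on both strands, in capitals.
Sfmbt2 promoter: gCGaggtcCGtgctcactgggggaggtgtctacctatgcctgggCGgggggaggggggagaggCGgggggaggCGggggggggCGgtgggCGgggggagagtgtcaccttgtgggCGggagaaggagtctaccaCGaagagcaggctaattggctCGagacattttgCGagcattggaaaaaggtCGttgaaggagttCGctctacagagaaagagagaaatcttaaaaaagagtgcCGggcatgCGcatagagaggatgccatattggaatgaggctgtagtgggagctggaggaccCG
The window holds 16 CG, and 33.0% of the 32851 promoter windows of this length hold at least as many (median 7). Methylation was not measured here.

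The level of a probe set is its log2 RMA value as deposited, so that a difference of 1 is a 2-fold difference. Array medians lay between 6.32 and 6.46. The arrays were hybridised with labelled total RNA from a silica column kit that mostly retains RNA longer than a mature microRNA, and a probe set for a microRNA gene cannot tell hairpin from primary transcript. Because the copies are near-identical, signal from one locus may also be read by another locus's probes. Several member probe sets held the same values on all 18 arrays (those of Mir466b-2 numbered 7 with 2 distinct profiles, those of Mir669k 9 with 6). The 43 probe sets gave 33 distinct profiles, which are numbered below where a symbol has more than 1. By family these were 2 profiles of Mir297, 8 of Mir466, 4 of Mir467 and 19 of Mir669.

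Most marker genes listed for a cell type were high on its array. Nanog, a core pluripotency factor, read 12.26 to 12.32 in ESCs and both iPSC lines, 6.09 in MEFs and 6.73 in GMPs. Mpo, the myeloperoxidase of granulocyte precursors, read 12.93 in GMPs, and Col1a1, a collagen of fibroblasts, 12.60 in MEFs. There were exceptions: Dppa5a, a pluripotency marker, read only 6.50 to 6.75 in ESCs and iPSCs. Cd34, listed for progenitors, read 10.11 in GMPs and 11.83 in Thy1+ cells, and Col1a1 was at 9.52 in ESCs and 10.70 in fibroblast-iPSCs.

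**Figure D1:**
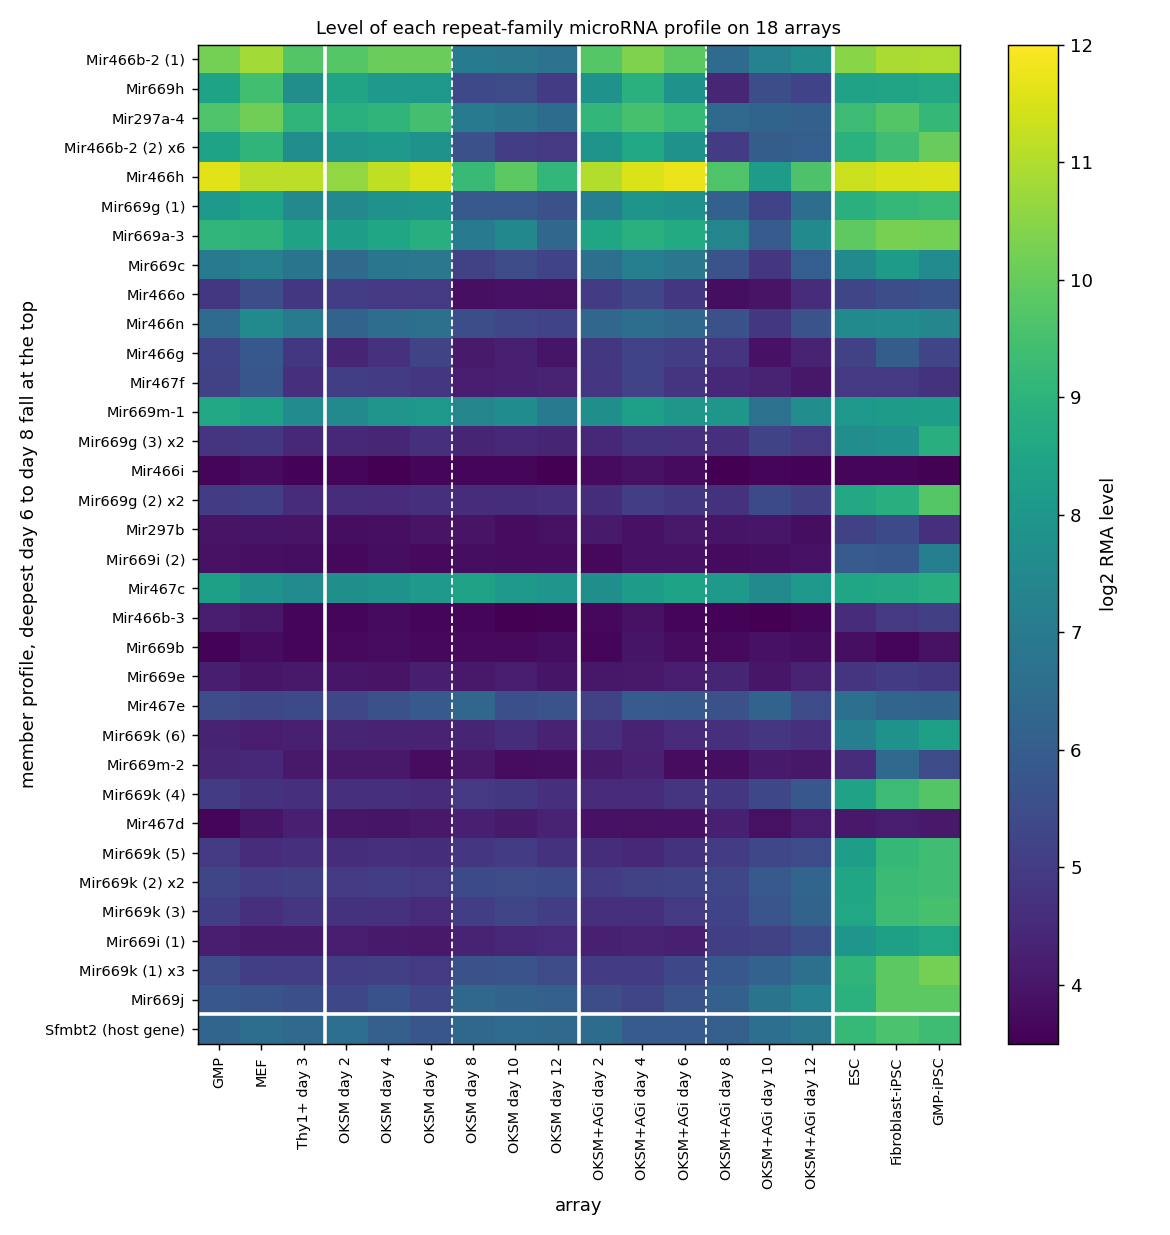
Level (log2 RMA, colour) of the 33 distinct member profiles and of the host gene Sfmbt2 (bottom row) on each of the 18 arrays, with rows ordered by the day 6 to day 8 difference and x2, x3 or x6 giving the number of probe sets with that profile. The upper rows are dark on days 8 to 12 of both arms and bright elsewhere, whereas the lower rows are bright in ESCs and iPSCs.

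The members split into 3 sets by these values. A first set of 9 profiles (14 probe sets of 8 symbols) was at least 1 log2 lower on day 8 than on day 6 in the mean of both arms. A second set of 13 profiles (18 probe sets of 6 symbols) was at least 1 log2 higher in ESCs than in MEFs. No profile was in both sets, and 11 profiles were in neither. On day 6 the second set read below the array medians in both arms, which left less room for a fall to be seen.

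In the first set, levels were lower on days 8, 10 and 12 of either arm than elsewhere. The other arrays were fibroblasts, progenitors, the first 6 days of induction and pluripotent cells. For each of the 9 profiles all 6 later arrays lay below all 12 others, which overlaps with the values that picked the families. The share over all probe sets is given below only for a gap of 1 log2, so nothing is read from this count. Of the 43 member probe sets, 14 were lower by at least 1 log2 in the mean of the arms, and across all single-symbol probe sets the share was 0.255%. With OKSM alone the count was 16 (0.344% of all probe sets), and with OKSM+AGi it was 14 (0.281%). These shares stand beside counts that the choice of the families used, so nothing is read from the contrast. Of the 469 other single-symbol microRNA probe sets, 3 were lower by that much. The median step of the 43 members was -0.11, because most of them did not share it.

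Mir466b-2 gave the deepest step. Its first profile read 9.76, 10.04 and 10.05 on days 2, 4 and 6 of OKSM and then 7.02, 6.91 and 6.71 on days 8, 10 and 12. With AGi it read 9.76, 10.35 and 9.84, then 6.47, 7.28 and 7.66. The 6 later arrays did not overlap any of the other 12, which included 10.81 in MEFs, 10.24 in GMPs, 9.72 in Thy1+ cells and 10.48, 10.91 and 10.94 in ESCs, fibroblast-iPSCs and GMP-iPSCs. Day 8 minus day 6 was -3.03 with OKSM and -3.37 with AGi. The second profile of the symbol, shared by 6 probe sets, had a mean step of -2.54. Its AGi arm read 4.99, 6.00 and 6.04 on days 8, 10 and 12, against 5.62, 5.04 and 4.90 with OKSM.

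Mir669h had the widest gap of the members. On OKSM its levels were 8.45, 8.08 and 8.02 up to day 6 and 5.39, 5.47 and 4.96 from day 8. On AGi they were 7.82, 8.89 and 7.83, then 4.40, 5.54 and 5.21. The lowest of the other 12 arrays was Thy1+ at 7.69, so the 2 groups of arrays were 2.15 apart. MEFs had its highest level, 9.43, and ESCs, both iPSC lines and GMPs lay between 8.41 and 8.62.

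Mir297a-4 carried the pattern in the Mir297 family. It read 8.90, 9.07 and 9.51 on days 2 to 6 of OKSM and 7.0, 6.78 and 6.50 on days 8 to 12. With AGi it read 9.11, 9.54 and 9.20 and then 6.39, 6.24 and 6.11. Levels were 10.17 in MEFs, 9.65 in GMPs, 9.07 in Thy1+ cells, 9.31 in ESCs, 9.74 in fibroblast-iPSCs and 9.17 in GMP-iPSCs. The later arrays were again all below the rest, here by at least 1.90.

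Mir466h had the highest mean signal of the members, 10.64 over all arrays, although signals of different probe sets give no order of abundance. It read 10.63, 11.18 and 11.51 on days 2 to 6 of OKSM and 9.27, 9.85 and 9.11 thereafter. With AGi the levels were 11.03, 11.51 and 11.75, then 9.65, 8.18 and 9.64. The single arrays were all between 11.14 and 11.61, and the 12 arrays outside the later days spanned 10.63 to 11.75. Even its lowest level, on day 10 with AGi, was above the array medians.

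Mir669g (first profile), Mir669a-3, Mir669c and Mir466o completed the first set. Mir669g had a mean step of -1.82, from 7.91 to 5.88 on OKSM and from 7.77 to 6.15 on AGi. Mir669a-3 went from 8.83 to 7.02 and from 8.71 to 7.35. All 4 had their later arrays below every other array, by 0.29 (Mir466o) to 0.75 (Mir669a-3). With AGi, 4 of the 9 profiles of this set were lowest on day 10, a share not counted over all probe sets. Among them Mir669a-3 read 5.99 and Mir669g 5.22, and both were higher again on day 12, at 7.53 and 6.57.

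The limit of 1 log2 cut through a continuous range. The profiles just inside it were Mir466o (-1.09), Mir669c (-1.47) and Mir669a-3 (-1.58). Just outside were Mir466n (-0.89), Mir466g (-0.70) and Mir467f (-0.52). Mir466n still had all its later arrays, 4.87 to 5.69, below the lowest other array at 6.20, and Mir467f, whose gene is not in Sfmbt2, had them at 4.05 to 4.45 against 4.67 or more.

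**Figure D2:**
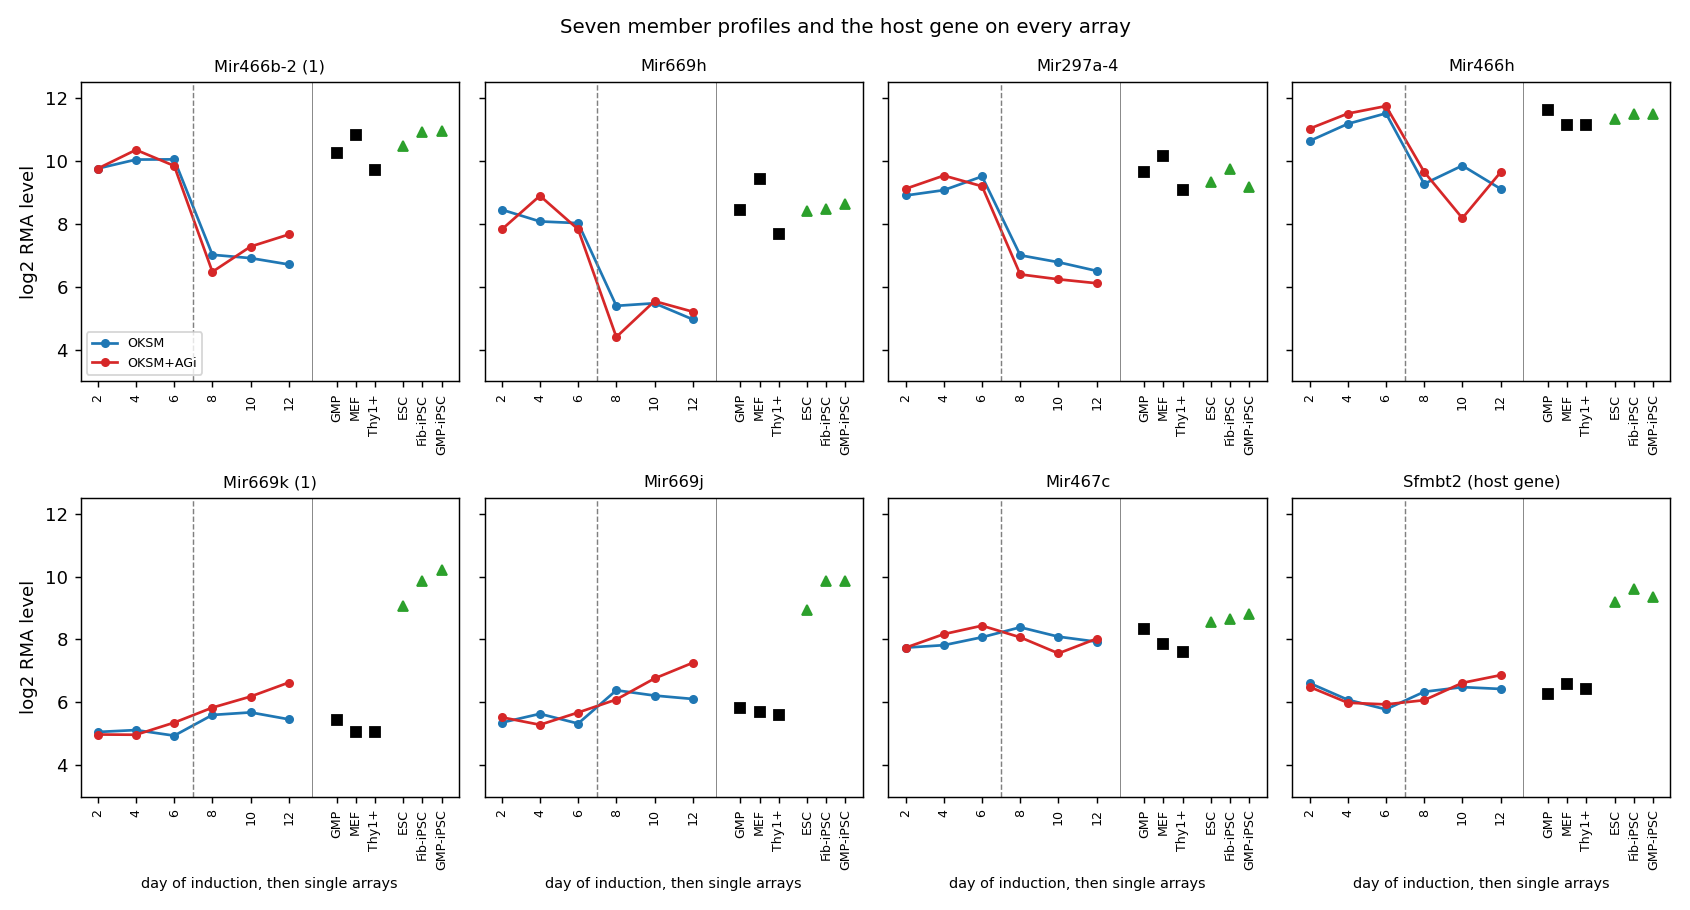
Level (log2 RMA) of 7 member profiles and Sfmbt2 by day with OKSM (blue) and OKSM+AGi (red), and on the 6 single arrays (squares for GMP, MEF and Thy1+ cells, triangles for ESCs and iPSCs), with 1 array per point and a dashed line between days 6 and 8. Mir466b-2, Mir669h, Mir297a-4 and Mir466h drop at that line in both arms, while Mir467c and Sfmbt2 do not.

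Among probe sets with 1 gene symbol few had this shape. All 6 arrays of days 8 to 12 were at least 1 log2 below the lowest of the other 12 in 12 of the 23521 single-symbol probe sets (0.051%), and 9 of these 12 were members: 7 of Mir466b-2, and those of Mir669h and Mir297a-4. The others were Olfr310, an olfactory receptor gene, with a gap of 2.30, Rdh13, a retinol dehydrogenase gene, with 1.24, and the unnamed transcript 1700030N03Rik with 1.19. None of the 469 other microRNA probe sets did so. Of the probe sets outside this count, 41 of 15820 with no symbol did, and 1 of 27 family probe sets with several symbols. Since 6 of the Mir466b-2 probe sets hold the same values, the members amount to 4 distinct profiles. This shape draws on values the families were picked for, so nothing is read from the members' share of the 12.

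**Figure D3:**
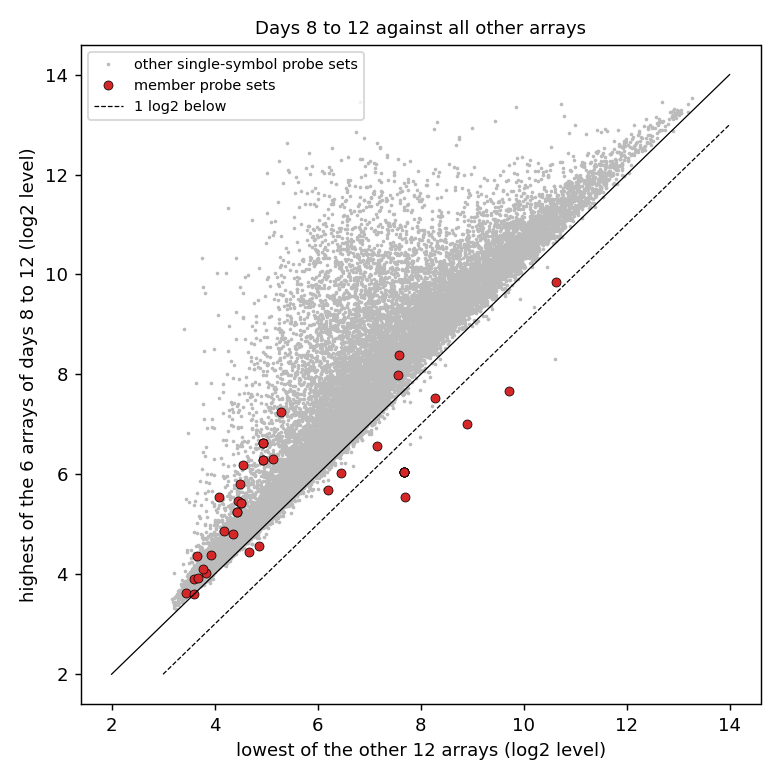
For each single-symbol probe set, the highest level on the 6 arrays of days 8 to 12 (vertical, log2) is plotted against the lowest level on the other 12 arrays (horizontal, log2), with members in red and the remaining probe sets in grey. Points below the solid line have all later arrays below the rest, and 12 points, 9 of them members, lie past the dashed line at 1 log2. The families were picked for values that enter both axes.

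The host did not share the step. Sfmbt2, which has 1 probe set, read 6.61, 6.08, 5.78, 6.34, 6.48 and 6.43 on days 2 to 12 of OKSM. With AGi it read 6.49, 5.99, 5.94, 6.07, 6.62 and 6.87. Day 8 was above day 6 in both arms, by 0.56 and 0.13, and the arrays of days 8 to 12 overlapped those of days 2 to 6. The day 6 levels of Sfmbt2, 5.78 and 5.94, were below the array medians, which left little room for a fall to be seen. Over the 12 time-course arrays the correlation of the first set with Sfmbt2 was negative for each of the 9 profiles (Pearson r from -0.64 to -0.31). It is a description over arrays that share their days and processing.

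Other measures that moved at the same step were as follows. The 23 background probe sets of the array, which match no transcript, were 0.04 to 0.37 higher on day 8 than on day 6, and the 18 hybridisation controls differed by -0.30 to 0.02. The labels name no scan date or batch, so days 8 to 12 and the handling of those arrays cannot be told apart. All 4 macrophage markers (Csf1r, Cd68, Adgre1 and Lyz2) were higher on day 8 than on day 6 in both arms, by 0.68 to 2.65 with OKSM and 0.54 to 1.22 with AGi. Their summed log2 level was 27.7 to 34.2 on days 2 to 6 and 31.2 to 37.1 on days 8 to 12. All 4 fibroblast markers (Thy1, Col1a1, Col3a1 and Pdgfrb) were also higher on day 8 in both arms, by 0.58 to 1.98 and 0.21 to 1.44, with summed log2 levels of 35.9 to 42.9 and then 40.5 to 45.5. Day 6 was a low point: every one of these markers was also higher on day 2 than on day 6 in both arms. The summed levels of days 2 to 6 and of days 8 to 12 overlapped for both lists. On the single arrays the fibroblast markers summed to 46.2 in MEFs, and the macrophage markers to 33.8 in MEFs and 41.3 in GMPs. The part of these cell types in the lower microRNA levels was not tested. In bulk cultures fewer cells of a type and less RNA per cell cannot be told apart.

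The second set was chosen by its ESC level, so its contrast between pluripotent and other cells is a description. Of the 43 members, 18 were at least 1 log2 higher in ESCs than in MEFs (8.27% of all single-symbol probe sets were), and 1, Mir669h, was lower by that much (8.01%). These were all profiles of Mir669k and Mir669i, 2 of the 3 of Mir669g, and Mir669j, Mir297b and Mir467e. Outside ESCs and iPSCs none of their values exceeded 7.26.

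Mir669k, with 9 probe sets, had the largest difference. Its first profile read 9.05 in ESCs, 9.87 in fibroblast-iPSCs and 10.21 in GMP-iPSCs, against 5.07 in MEFs, 5.45 in GMPs and 5.06 in Thy1+ cells. On days 2 to 12 of OKSM it read 5.06, 5.12, 4.94, 5.60, 5.68 and 5.46. With AGi it read 4.98, 4.97, 5.36, 5.83, 6.19 and 6.63. The pluripotent arrays stood apart from every other one, and the next highest level was that of day 12 with AGi.

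Mir669j had its high and low arrays in the same places. It read 8.92, 9.85 and 9.85 in ESCs and the iPSC lines, and 5.70 in MEFs, 5.81 in GMPs and 5.59 in Thy1+ cells. Its OKSM series was 5.36, 5.64, 5.33, 6.38, 6.22 and 6.11, and its AGi series 5.53, 5.29, 5.68, 6.09, 6.76 and 7.26. Its day 8 minus day 6 difference was 1.06 with OKSM, the highest of the members, and 0.41 with AGi, where Mir669i (0.82) and Mir669k (0.48) were higher. Mir669i (first profile) read 7.95 to 8.58 in pluripotent cells and 4.12 to 4.18 in MEFs, GMPs and Thy1+ cells. It went from 4.09 to 4.35 between days 6 and 8 on OKSM and from 4.26 to 5.08 on AGi.

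Sfmbt2 had the same contrast: 9.21 in ESCs, 9.60 in fibroblast-iPSCs and 9.37 in GMP-iPSCs, against 6.57 in MEFs, 6.27 in GMPs and 6.42 in Thy1+ cells. Over the 18 arrays, 17 member probe sets (12 profiles of 5 symbols) had a Pearson correlation of at least 0.9 with Sfmbt2, the highest being Mir669k at 0.97. Among all single-symbol probe sets, 211 reached that value, and the median was 0.03. In the first set the correlation was 0.22 to 0.59. The points are single arrays, and the 3 pluripotent ones carry much of the relation: over the 12 time-course arrays alone the correlation of those 12 profiles with Sfmbt2 ran from -0.30 to 0.68.

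**Figure D4:**
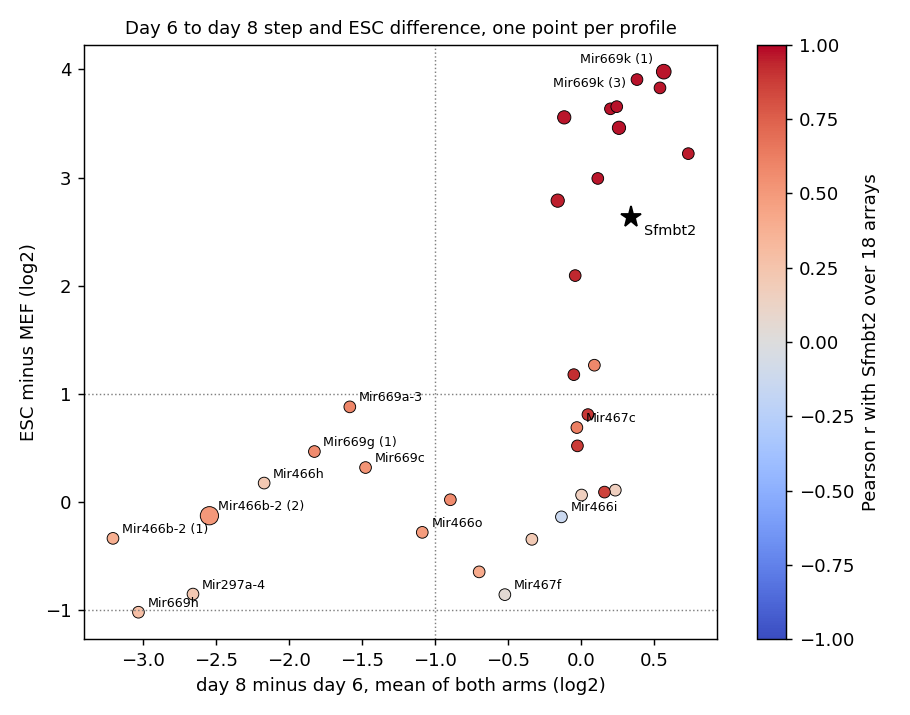
Each of the 33 member profiles is placed by its day 8 minus day 6 difference (horizontal, log2, mean of both arms) and its ESC minus MEF difference (vertical, log2), with colour for the Pearson correlation with Sfmbt2 over 18 arrays, point area by number of probe sets and a star for Sfmbt2. The 9 profiles left of -1 have ESC differences of -1.02 to 0.88, and the 13 profiles above 1 have steps of -0.16 to 0.74.

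Copies of a single symbol lay on both sides. Mir669g has 5 probe sets with 3 profiles. The first was in the set that was low from day 8, at 8.44 in MEFs and 8.91 in ESCs. The second read 5.06 in MEFs and 8.62 in ESCs, and on day 8 it was 4.58 with OKSM and 4.73 with AGi, near its day 6 levels of 4.68 and 4.86. Those day 6 levels were below the array medians, so there was little room for a fall to be seen. The level in MEFs, however, is not given by the symbol alone.

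The 11 profiles in neither set were of several kinds. Mir467c was bright throughout, at 7.56 to 8.44 over the time course, 8.55 to 8.80 in ESCs and iPSCs and 7.59 to 8.33 in the remaining arrays. Mir669m-1 read 6.66 to 8.31 over the time course. Mir466i, the member on chromosome 13, stayed between 3.44 and 3.88 on all arrays, as did Mir669b between 3.59 and 3.99, both well below the array medians. A lower level could hardly be seen from there.

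GMPs and MEFs were compared as starting cells. In GMPs, 1 of 43 members was at least 1 log2 lower than in MEFs (8.26% of all probe sets), namely Mir466n at 6.48 against 7.55. None was higher by that much, a count whose share over all probe sets is not given here. GMP levels are among the values that picked the families, so nothing is read from these counts. Differences between GMPs and MEFs ran from -1.07 to 0.48. On day 2 of OKSM, 10 members were at least 1 log2 below MEFs (2.21% of all), and in the Thy1+ cells of day 3 also 10 (2.26%). Because 6 of those 10 share the values of Mir466b-2, 5 distinct profiles were lower in each comparison. On day 2 the others were the first profile of that symbol, Mir297a-4 (8.90 against 10.17), Mir466n (6.20 against 7.55) and Mir466g (4.36 against 5.83). Both comparisons share the MEF array.

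The iPSC lines were compared with ESCs. In GMP-iPSCs, 17 member probe sets were at least 1 log2 higher than in ESCs (0.663% of all), and in fibroblast-iPSCs 1 was (1.61%). The 17 comprised 8 profiles, and the largest difference was 1.33, for a profile of Mir669k, which read 9.72 against 8.39 and was 9.34 in fibroblast-iPSCs. The 1 in fibroblast-iPSCs was Mir669m-2, at 6.39 against 4.59. For Sfmbt2 the values were 9.37 in GMP-iPSCs and 9.60 in fibroblast-iPSCs against 9.21 in ESCs. Over the 33 distinct profiles the median difference from ESCs was 0.37 in GMP-iPSCs and 0.28 in fibroblast-iPSCs. Over the 43 probe sets, where same-valued ones count several times, it was 0.89 and 0.39, and over all single-symbol probe sets 0.01 in both. Both comparisons share the ESC array.

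The difference between the arms was the one comparison that could be tested. A probe set entered the test where 3 or more of the 12 time-course arrays had it at or above their median, as 17 of the 43 member probe sets did (12 profiles of 11 symbols). Several passed only through their higher levels on days 2 to 6, and of the second set only Mir669j passed. With limma and the day as a block, none of the 17 was called at an adjusted p of 0.05, in either direction, and none had an unadjusted p below 0.05. Over all 14577 probe sets tested, 19.5% were called higher and 19.1% lower with AGi.

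The estimates for the tested members were between -0.20 and 0.32. The highest was Mir466b-2 (second profile), at 0.32 ± 0.22 (log2, limma SE, n = 6 days, adjusted p = 0.284), higher with AGi on 3 of 6 days. The lowest was Mir297a-4, at -0.20 ± 0.15 (adjusted p = 0.329), lower on 4 of 6 days. The 95% intervals of the tested members lay within -0.61 and 0.83. Standard errors were 0.12 to 0.29, above the median of 0.08 over all tested probe sets. Sfmbt2 differed by 0.04 ± 0.10 (adjusted p = 0.758). The 18 hybridisation controls, which are added to every array and come from no cell, all read higher with AGi, by 0.06 to 0.26. Of these 18 controls, 11 had a limma p as small as those of probe sets called in the same fit. A call alone therefore does not show a difference between the cells. In size, 11 of the 17 member estimates were no larger than 0.26.

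**Figure D5:**
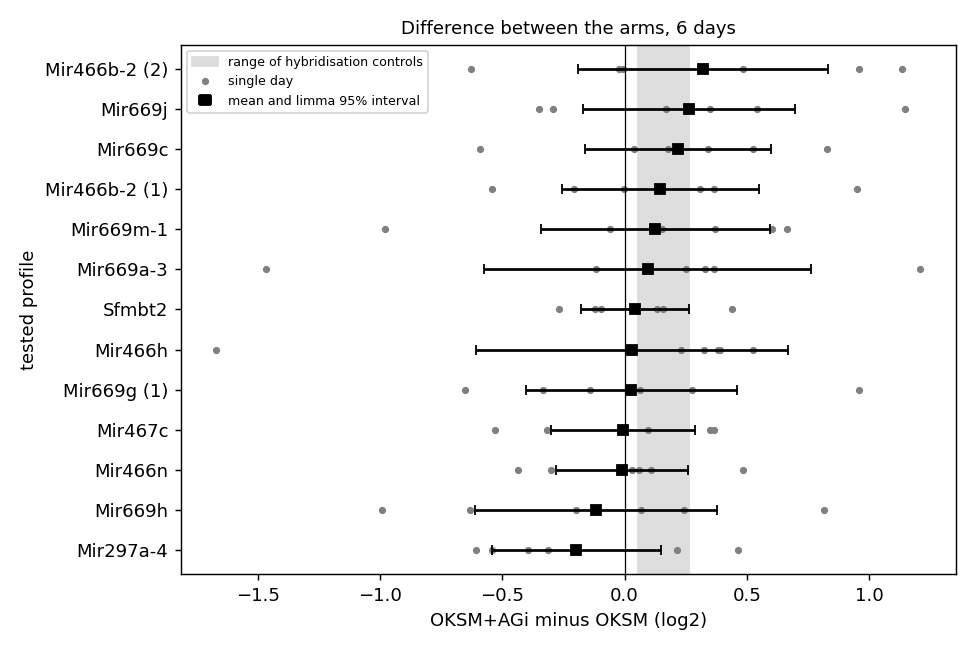
Difference between OKSM+AGi and OKSM (log2) for the 12 tested member profiles and Sfmbt2, with grey points for the 6 single days, a square for their mean and a bar for limma's 95% interval; the grey band spans the 18 hybridisation controls, 0.06 to 0.26. Every bar crosses 0, and the day 10 point of Mir466h lies far to the left of its other days.

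The change with day did not differ detectably between the arms either. None of the 17 members was called in the slope difference, and none had an unadjusted p below 0.05, where limma called 1.69% of all tested probe sets higher and 1.23% lower. The nearest was Mir669j, whose slope was 0.10 ± 0.05 log2 per day higher with AGi (limma SE, 12 arrays, adjusted p = 0.303). A straight line in day does not follow a step, and in the first set the standard errors reached 0.15 log2 per day (Mir466b-2, first profile). Differences in slope could be missed there. For Sfmbt2 the difference was 0.04 ± 0.05 log2 per day (adjusted p = 0.732).

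Single days went both ways. On day 10, 8 of the 12 tested profiles were lower with AGi, down to -1.67 for Mir466h and -1.47 for Mir669a-3. On day 12 these 2 read 0.52 and 1.21 higher. On day 6, 8 of the 12 were lower as well, and on days 4 and 12, 11 of the 12 were higher. The share over all tested probe sets is not given for single days, so nothing is read from these counts. For day 12, in a comparison chosen after the values were seen, 14 of 43 members were at least 1 log2 higher with AGi than without (3.79% of all single-symbol probe sets), and none was lower by that much. These were 7 distinct profiles, 5 in the second set and 2 in the first. Mir669k read 6.63 against 5.46 and Mir669j 7.26 against 6.11. Mir669a-3, in the first set, read 7.53 against 6.32, and Mir466b-2 (second profile) 6.04 against 4.90. Within the second set, 8 of 13 profiles had their highest AGi level on day 12, and 2 of 13 did so with OKSM. Of these 13 profiles, 6 are of Mir669k. The same shares over all probe sets were not counted, so nothing is read from the contrast. Each value is 1 array. Nanog on the same arrays read 12.08 with AGi and 9.95 with OKSM.

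The genes that make and use microRNAs were taken as a list of the pathway. Of 22 listed genes of microRNA processing and action, 20 had a probe set and 19 were tested. With limma, 4 of the 19 were higher with AGi and 2 lower, where 19.5% and 19.1% of all tested probe sets were, so the list did not stand out by its counts. Drosha, the nuclear enzyme that cuts the primary transcript, was higher by 0.46 ± 0.06 (adjusted p = 0.0016) on 6 of 6 days. Its levels were 9.86 to 10.09 with OKSM and 10.29 to 10.52 with AGi, and the arms did not overlap. Lin28a, an RNA-binding protein of stem cells that blocks let-7 processing, was higher by 0.46 ± 0.14 (adjusted p = 0.0332) on 5 of 6 days. Ago4, an Argonaute, was lower by 0.74 on the log2 scale on 6 of 6 days (-0.74 ± 0.13, adjusted p = 0.0044), at 5.37 to 6.00 against 6.16 to 6.91. Ran, the GTPase of nuclear export, and Tarbp2, a Dicer partner, were higher by 0.30 and 0.26, close to the largest control. Ago1 differed by -0.27, opposite in sign to the controls, which all read higher with AGi. No gene of the list was called in the slope difference. At the day 6 to day 8 step Drosha differed by -0.23 and -0.04, and Dicer1, which cuts the hairpin, by 0.04 and -0.12.

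Among the 3 protein-coding neighbours on either side of Sfmbt2, 5 were tested. Rbm17, a splicing factor gene, was higher with AGi by 0.36 ± 0.07 (limma, adjusted p = 0.0054) on 6 of 6 days, and Itih2, a gene for an inhibitor heavy chain of the extracellular matrix, was lower by 1.03 on the log2 scale (-1.03 ± 0.27, adjusted p = 0.0202). None of the 6 neighbours was 1 log2 lower on day 8 than on day 6 in either arm. The difference was 2.03 with OKSM and 0.49 with AGi for Itih2, and -0.08 and -0.14 for Rbm17.

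The genes most like the average member were found by correlation with the mean profile of the members over the 18 arrays. The first 5 were Prmt8 (Pearson r 0.96), a protein arginine methyltransferase gene, Chrm4 (0.96), Cspg5 (0.95), Tsx (0.95) and Mgat4e (0.94). Sfmbt2 ranked 134 of 23009 at 0.87. Prmt8 read 7.02 to 7.30 in ESCs and iPSCs, 5.36 to 5.64 on days 2 to 6 and 5.23 to 5.45 on days 8 to 12. Tsx, a gene of the X-inactivation centre, read 8.12 to 8.33, 7.48 to 7.57 and 6.89 to 7.22 on the same arrays. The arrays share cell states, and such a correlation says only that the profiles run alike.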

How the data were processed

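RNA was prepared with a DNase step on RNeasy Mini columns and labelled with biotin, per the labels' protocols. Each deposited value is a log2 expression level that the authors computed by RMA in Affymetrix Expression Console, per the submitters' processing notes. Software versions, scan dates and the build behind the probe sets were not given in the sources used here. Gene symbols are those of the platform's annotation, renewed through gene IDs with RefSeq GRCm38.p6, which matched all 24 member symbols; 27 family probe sets with several symbols were left out.

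Arm differences were fitted over 14577 probe sets with limma 3.58.1 in R 4.3.3, Benjamini-Hochberg adjusted: arm with day as a block (5 residual degrees of freedom), and arm with a linear term for day in each arm (8). With 1 array per arm and day, p-values of the arm difference rest on how that difference varies from day to day. Those of the slope difference rest on the scatter about the line of each arm. Either spread may be technical. On simulated arrays with 200 changed probe sets, 54.9% were recovered at 0.5 log2, 89.7% at 1 and 100% at 2. For the slope it was 40.4% at 0.1 log2 per day, 84.1% at 0.2 and 98.6% at 0.4. Members with larger standard errors may be recovered less often. Named members were the 6 lowest and 3 highest day 8 minus day 6 differences, the 4 highest means, and 3 on each side of a difference of 1 log2; others were named after their values were seen. Members, lists and rules were chosen with earlier results of these data known. Alternatives were other filters, normalization, variances, day terms, thresholds and days left out. Figures were drawn with matplotlib 3.10.9.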

Additional observations from a re-analysis of the deposited data

Results flagged for a closer look

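Mir466h stood apart on 1 day. Its difference between OKSM+AGi and OKSM was -1.67 on day 10, where the other 5 days lay between 0.23 and 0.52. The gap is past Dixon's 95% limit for 6 values. Of 13 profiles examined (12 tested members and Sfmbt2) this was the only one past it, and chance marks about 5% of such groups. The low value is that of the AGi array of day 10 (8.18). On the same array 4 of the 9 profiles that were low from day 8 had the lowest of their 6 AGi levels. So did 7 of the 11 that were neither low from day 8 nor higher in ESCs, and 0 of the 13 higher in ESCs. The share over all probe sets was not counted, so nothing is read from these counts. The cause was not tested.

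Probe sets outside the comparisons carried the same shape. All 6 arrays of days 8 to 12 were at least 1 log2 below the other 12 in 41 of the 15820 probe sets with no gene symbol, and in 1 of the 27 family probe sets that name several genes. They are unnamed here or shared between genes and were not used further.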

How the results depend on the processing

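None of the 17 tested members was called under any setting of the slope difference. For the arm difference, values of single member profiles and of Sfmbt2 were recomputed under the alternatives. Of these, 196 of 198 kept their side of the threshold and 2 crossed it. Without the filter on low values, 4 of 43 were higher with AGi, where 11.7% of all 23521 probe sets were (limma, adjusted p between 0.0197 and 0.0428): 2 same-valued probe sets of Mir669g (0.36), and 1 each of Mir669i (0.48) and Mir669k (0.24). With 1 day left out the count of higher members was 0 to 1; the 1 was Mir466h without day 10 (0.37, adjusted p = 0.0119). With days 8, 10 and 12 only, 1 was lower, Mir297a-4 (-0.52, adjusted p = 0.0149). These cover few arrays and the cause was not tested.

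The count of 14 members lower on day 8 was 8 of 24 with 1 probe set per symbol and 9 of 33 with same-valued probe sets counted once, 17 at 0.5 log2, 14 after quantile normalization and 15 for the means of days 8 to 12 against 2 to 6. At 0.5 log2 the counts were 13 for GMP below MEF, 17 for day 2 below MEF and 16 for Thy1+ below MEF. At that limit they were 13 for fibroblast-iPSC above ESC and 25 for day 12 with AGi above OKSM. At 1 log2 the count for GMP below MEF was 2 after quantile normalization, in place of 1. With same-valued probe sets counted once, the counts at 1 log2 were 5 for day 2, 5 for Thy1+, 8 for GMP-iPSC above ESC and 7 for day 12. Counting once, the separate fits of days 2 to 6 and 8 to 12, the separate level for later days and the day 12 settings were chosen after seeing the data. The arms were paired by day, as the labels give it, and the day served as the replicate block; without it 0 of the 17 were called higher and 0 lower, with an estimate of 0.32 and an adjusted p of 0.791 for Mir466b-2 (second profile) in place of 0.284. The number of arrays, 1 per condition, limits the precision of every value.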
